A study of Mus musculus with 4 samples.

Results

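Chemokine ligands are the small secreted proteins that direct the movement of leukocytes, and 10 of their genes were followed here in mouse cultures forming osteoclasts: Ccl2, Ccl3, Ccl4, Ccl6, Ccl7, Ccl9, Ccl12, Cxcl2, Cxcl10 and Cxcl16. They were chosen by symbol as CC and CXC chemokines, with earlier results of these data known. All 10 were found among the 23390 gene models of the count table. Cells were marrow-derived macrophages of wild-type C57BL/6J mice, first grown for 3 days in L929 supernatant (a source of M-CSF, equivalent to 20 ng/ml) and then given 40 ng/ml RANKL. They received either 10 µM BMS-582949, which inhibits p38α kinase (2 libraries), or the solvent DMSO (2 libraries), and RNA was taken on day 4. The design text has the compound present for 3 days and the treatment protocol for 4 days. Whether replicate libraries stem from different mice or cultures is not in the labels, so p-values reflect only the spread among these 4 libraries, possibly technical. Libraries held 39255925 and 37455168 counts with BMS-582949 and 35331889 and 36178333 counts with DMSO.

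Chemokines of the CC family carry adjacent cysteines near the amino terminus, and those of the CXC family have a single residue between them. Both act through G protein-coupled receptors, and many are encoded in gene clusters whose members arose by duplication. Myeloid cells make many of these ligands after inflammatory signals acting through NF-kB, AP-1 and interferon-regulated factors, and p38 kinase is known in macrophages to stabilise several inflammatory mRNAs with AU-rich elements. Osteoclasts are known both to secrete CC chemokines and to respond to them through Ccr1, and Ccl9 is one of the chemokines they are known for.

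With BMS-582949, 4 of the 10 ligands rose, namely Ccl2, Cxcl10, Cxcl16 and Ccl9, and none fell. The rises of Ccl2, Cxcl10 and Cxcl16 were 5.19-fold, 5.10-fold and 2.65-fold, while that of Ccl9 was 1.22-fold. Over all 13214 genes tested, 30.5% were called higher and 29.7% lower by edgeR's quasi-likelihood test at a Benjamini-Hochberg adjusted p under 0.05, and 60.2% in either direction, so the members' share of calls to higher values lies near that background. Of the 10, 3 were called with a log2 fold change of at least 1, against 9.94% of tested genes called higher by that rule. For 6 members both BMS-582949 libraries lay above both DMSO libraries, against 41.4% of tested genes, and for no member below, against 38.7%. The members' median log2 fold change was 0.37, and that of all tested genes was 0.03. The 6 members with both BMS-582949 libraries above both DMSO libraries include Ccl12. It passed the low-count filter through its BMS-582949 libraries alone, so its place among the 6 is tied to the filter. Without Ccl12 the members' median was 0.29. Since the members were chosen with earlier results of these data known, these comparisons with all tested genes are no independent evidence. In bulk RNA a changed share of cells of a type and a changed amount of RNA per cell cannot be told apart.

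**Figure D1:**
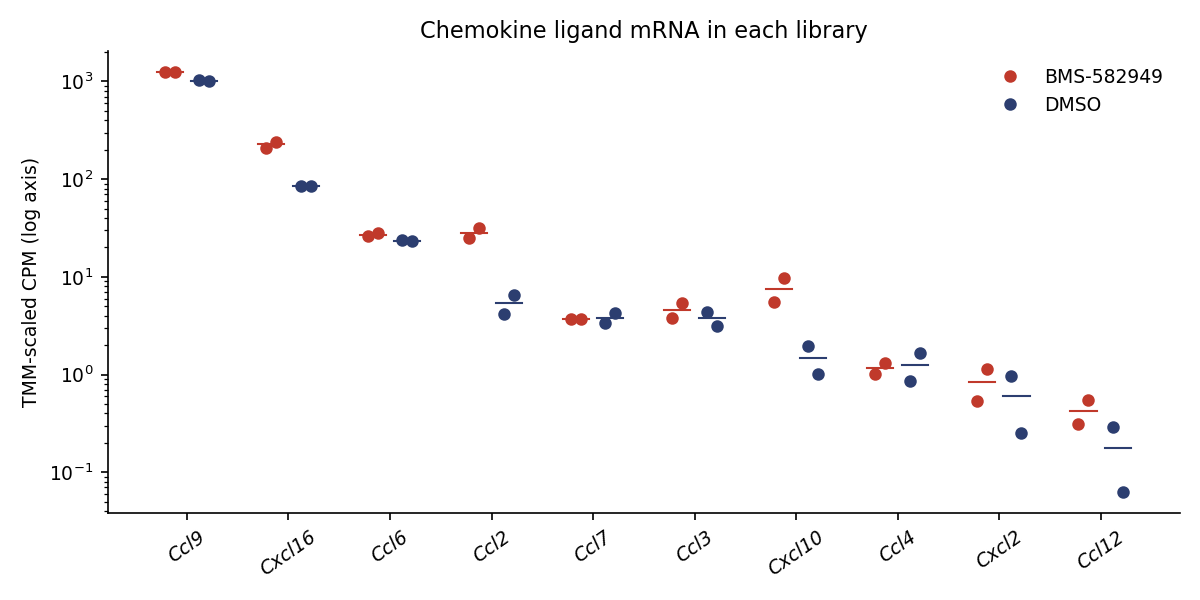
TMM-scaled CPM on a log axis for the 10 chemokine ligands, with 1 point per library and a bar at the mean of 2 libraries, BMS-582949 left of DMSO. The groups are well apart for Ccl2, Cxcl10 and Cxcl16 and interleave for Ccl3, Ccl4, Ccl7 and Cxcl2.

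Other genes of the cultures moved in the same contrast. The marker counts that follow stand beside 30.5% of all tested genes called higher and 29.7% called lower. All 10 osteoclast markers examined were called lower, with summed levels of 12156 and 12315 CPM in the BMS-582949 libraries and 99133 and 103350 CPM in the DMSO libraries. Of 8 macrophage markers 5 were called higher and 2 lower, and their sum, to which Cd68 and Csf1r contribute most, was 2857 and 3039 CPM with BMS-582949 against 5665 and 5911 CPM with DMSO. Neutrophil markers (3 of 7 tested called lower, Ly6g at 0 counts in every library) summed to 17.6 to 20.8 CPM with BMS-582949 and 27.7 to 27.8 CPM with DMSO. Stromal markers (4 of 7 lower, 1 higher) summed to 465 to 472 CPM with BMS-582949 and 663 to 720 CPM with DMSO. Dendritic cell markers (1 of 2 tested lower) summed to 16.7 to 16.9 CPM with BMS-582949 and 27.4 to 33.9 CPM with DMSO. Markers of B, T and NK, mast, megakaryocytic, endothelial and erythroid cells summed to at most 3.21 CPM per list in any library, and Cd3e, Cd8a, Ncr1 and Fcer1a were at 0 in every library. The part of these shifts in the ligand values was not tested. Mapk14, which encodes p38α, measured 160 and 156 CPM with BMS-582949 and 100.4 and 111 CPM with DMSO.

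Ccl2 (ENSMUSG00000035385, chromosome 11, 82035571 to 82037453 on GRCm38) encodes a monocyte attractant that acts through Ccr2. Its counts were 1118 and 1332 in the BMS-582949 libraries against 131 and 208 in the DMSO libraries. Scaled, this was 24.7 and 31.5 CPM with BMS-582949 and 4.21 and 6.59 CPM with DMSO. Both treated libraries were high, and the groups were separate. The log2 fold change was 2.38 ± 0.19 (SE, n = 2 each, edgeR adjusted p = 3.3e-07), with a 95% interval of 1.96 to 2.79.

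The gene next to Ccl2 was not called. Ccl7, another Ccr2 ligand, starts 8.26 kb after the end of Ccl2 on the same strand and had 168 and 158 counts with BMS-582949 and 104 and 136 with DMSO. On the scaled values, 3.71 and 3.73 CPM with BMS-582949 lay inside the DMSO range of 3.35 and 4.31 CPM, so the groups overlapped. The log2 fold change of Ccl7 was -0.04 ± 0.23 (SE), with an interval of -0.54 to 0.46 that excludes a change of the size seen for Ccl2. Within each library there were 6.65 and 8.43 counts of Ccl2 per count of Ccl7 with BMS-582949, against 1.26 and 1.53 with DMSO. This ratio needs no scaling between libraries, and it was higher in both treated libraries. Of 50-base stretches of the Ccl2 and Ccl7 transcripts, 0 were shared with another annotated gene.

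Ccl12, a further Ccr2 ligand of this stretch of the chromosome, was near the limit of detection. It had 14 and 23 counts with BMS-582949 and 9 and 2 with DMSO. Scaled levels were 0.310 and 0.544 CPM with BMS-582949 and 0.290 and 0.0634 CPM with DMSO. The treated libraries were above the others, but replicate 1 of the 2 groups was nearly level. The interval of the Ccl12 log2 fold change ran from -0.54 to 3.05 around 1.26 and it was not called (edgeR adjusted p = 0.208). Counts of Ccl2, Ccl7 and Ccl12 added as 1 feature were 1300 and 1513 with BMS-582949 and 244 and 346 with DMSO, giving 1.78 ± 0.16 on the log2 scale (SE, adjusted p = 1.3e-06).

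The more distant CC genes of chromosome 11 include the most abundant ligand. Ccl9 (ENSMUSG00000019122, chromosome 11, 83572919 to 83578636), a Ccr1 ligand of osteoclasts, had 55828 and 53147 counts with BMS-582949 and 32032 and 31843 with DMSO. The scaled levels were 1234 and 1256 CPM with BMS-582949 and 1030.5 and 1009 CPM with DMSO. Both treated libraries were higher, by a small step. The log2 fold change was 0.29 ± 0.06 (SE, adjusted p = 2.0e-03, 95% interval 0.15 to 0.43). Scaling by library size only gave 0.67 for Ccl9, because it moved the median of all genes from 0.03 to 0.41, and changes given here use TMM scaling unless stated. With library size only, 6 members were called higher, against 51% of tested genes.

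Ccl6, a related Ccr1 ligand whose gene lies 9.25 kb from Ccl9, had 1181 and 1179 counts with BMS-582949 and 748 and 726 with DMSO. At 26.1 and 27.9 CPM with BMS-582949 against 24.1 and 23.0 CPM with DMSO, the groups were separate but close. Its log2 fold change of 0.20 ± 0.11 (SE, interval -0.04 to 0.43) was not called (adjusted p = 0.137), and with library size only it was called (0.58, adjusted p = 6.0e-04). Counts of Ccl9 per count of Ccl6 were 47.3 and 45.1 with BMS-582949 and 42.8 and 43.9 with DMSO. The coding sequences of the pair are 64.6% identical, and no 50-base stretch of the Ccl6 transcript occurred in another gene. Of the 50-base stretches of Ccl9 transcripts, 1.97% also occurred in other annotated genes (463 genes).

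Ccl3, which acts through Ccr1 among other receptors, had 170 and 227 counts with BMS-582949 and 135 and 100 with DMSO. Scaled levels of 3.76 and 5.36 CPM with BMS-582949 and 4.34 and 3.17 CPM with DMSO overlapped. The log2 fold change was 0.28 with an interval of -0.26 to 0.82 (adjusted p = 0.355), and it was called with library size only (0.66, adjusted p = 0.036). Ccl4, an attractant of monocytes and T cells encoded 13.23 kb away and 68.4% identical to Ccl3 in its coding sequence, had 46 and 56 counts with BMS-582949 and 27 and 52 with DMSO. Its groups overlapped too, and its interval of -1.04 to 0.83 admits a change of about 2-fold downward or slightly less upward.

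**Figure D2:**
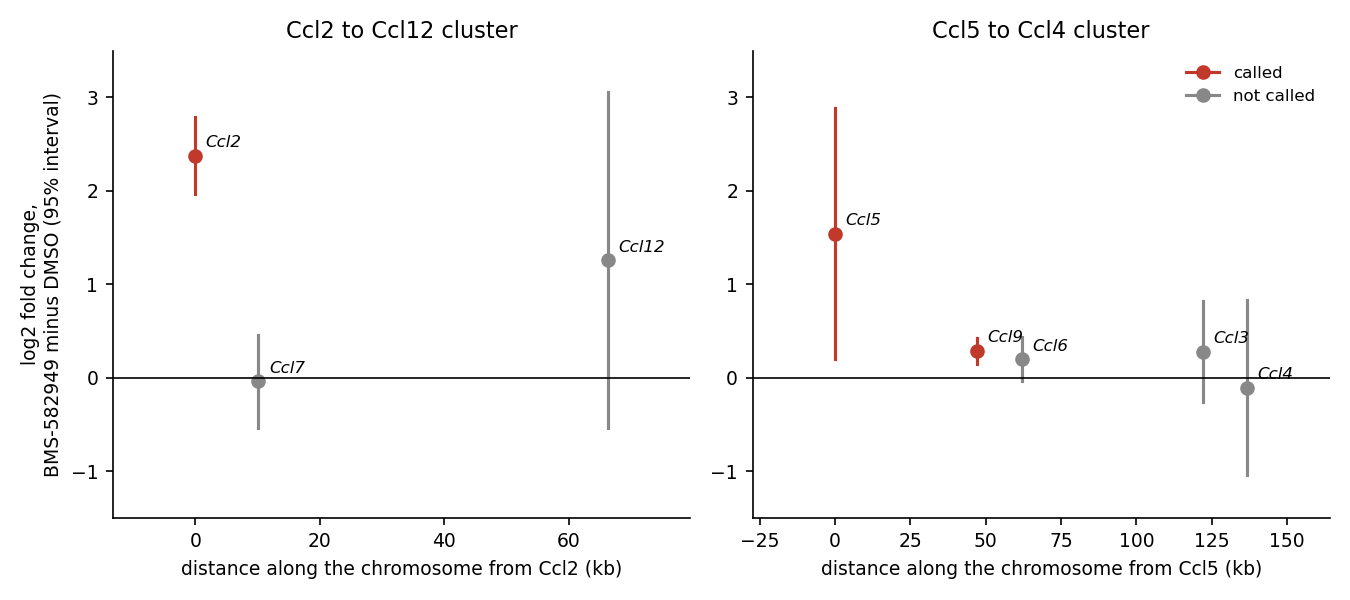
Log2 fold change (BMS-582949 minus DMSO, with 95% interval) of the CC ligand genes tested on chromosome 11 against distance along the chromosome in kb, in the clusters that begin with Ccl2 and with Ccl5. Ccl2 lies at 2.38 and Ccl7 beside it at -0.04, Ccl12 and Ccl5 lie at 1.26 and 1.54 with wide intervals, and Ccl9, Ccl6, Ccl3 and Ccl4 lie between -0.11 and 0.29.

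Among the CXC ligands, Cxcl16 (ENSMUSG00000018920, chromosome 11, 70453983 to 70459984) was the most abundant. It encodes a membrane-bound chemokine that is shed by proteases, binds Cxcr6 and also takes up oxidised lipoprotein. Its counts were 9509 and 10252 with BMS-582949 and 2675 and 2669 with DMSO, or 210.2 and 242 CPM with BMS-582949 and 86.1 and 84.6 CPM with DMSO. The groups were far apart relative to their spread. The log2 fold change was 1.41 ± 0.07 (SE, adjusted p = 8.0e-09, 95% interval 1.24 to 1.57). Zmynd15, on the opposite strand, overlaps 18.3% of the Cxcl16 exons, had 407 and 345 counts with BMS-582949 and 110 and 82 with DMSO, and the strand setting of the counting is unknown, so reads from the overlap cannot be told apart. Sheddase genes Adam17 and Adam10 rose by 0.99 and 0.84 on the log2 scale, while the metalloelastase gene Mmp12 fell by 0.26. The Mmp12 call ended without BMS-582949 replicate 1 or DMSO replicate 2 (adjusted p 0.067 and 0.062), and with library size only its sign turned (0.12).

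Cxcl10 (ENSMUSG00000034855, chromosome 5, 92346638 to 92348889) encodes an interferon-inducible ligand of Cxcr3. It had 249 and 410 counts with BMS-582949 against 61 and 32 with DMSO, or 5.50 and 9.69 CPM with BMS-582949 and 1.96 and 1.01 CPM with DMSO. All treated values were above all solvent values, although the libraries of each group differed from each other by more than counting error. The log2 fold change was 2.35 ± 0.33 (SE, adjusted p = 5.6e-05, 95% interval 1.62 to 3.07). Art3, on the opposite strand, overlaps 5.91% of the Cxcl10 exons and had at most 2 counts in any library. Cxcl2, a neutrophil attractant that acts through Cxcr2, had 24 and 48 counts with BMS-582949 and 30 and 8 with DMSO. Its groups overlapped, and the interval of -0.96 to 1.86 admits a change of nearly 2-fold downward and of more than 2-fold upward. Of 50-base stretches of Cxcl2 transcripts, 5.84% also occur in Cxcl3, so a few of its reads could belong to that gene, which had at most 9 counts in any library.

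**Figure D3:**
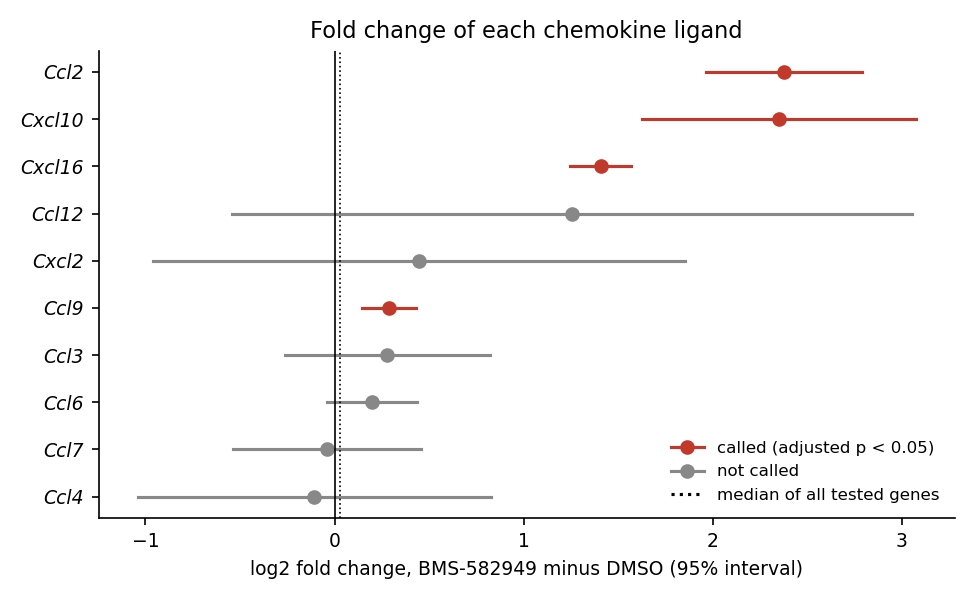
Log2 fold change of each ligand (BMS-582949 minus DMSO, point) with its 95% interval (line), and the median of all tested genes as a dotted line. Intervals of Ccl2, Cxcl10, Cxcl16 and Ccl9 lie above 0, and the low-count genes Ccl12 and Cxcl2 have the widest intervals.

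Promoter windows from RefSeq (build GRCm38.p6, 250 bases before to 50 after the start) were given for 6 of the 10 members, namely Ccl3, Ccl6, Ccl9, Ccl12, Cxcl2 and Cxcl10. Those of Cxcl10, Cxcl2, Ccl9 and Ccl6 are shown to set a member that rose strongly beside 1 that was not called, and the neighbours Ccl9 and Ccl6 beside each other. Capitals mark any match, on either strand, to an AP-1 motif (TGANTCA), an interferon-response core (GAAA and GAAA with any 2 bases between), a loose kB motif (GGGNNNNNCC) or a TATA motif (TATAAA), and overlapping matches run together.
Cxcl10, chr5:92348840-92349139, minus strand: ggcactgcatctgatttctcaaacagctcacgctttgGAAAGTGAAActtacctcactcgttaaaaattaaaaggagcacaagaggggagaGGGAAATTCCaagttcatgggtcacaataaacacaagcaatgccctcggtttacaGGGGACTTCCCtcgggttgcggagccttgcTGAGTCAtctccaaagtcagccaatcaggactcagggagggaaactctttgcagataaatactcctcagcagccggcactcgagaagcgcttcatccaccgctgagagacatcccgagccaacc
Cxcl2, chr5:90903649-90903948, plus strand: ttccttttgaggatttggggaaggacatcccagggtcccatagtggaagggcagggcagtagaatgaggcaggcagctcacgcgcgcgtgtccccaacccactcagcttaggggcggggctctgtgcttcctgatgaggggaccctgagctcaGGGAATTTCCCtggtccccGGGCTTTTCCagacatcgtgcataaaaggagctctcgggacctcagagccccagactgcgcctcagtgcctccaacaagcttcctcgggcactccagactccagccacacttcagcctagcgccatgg
Ccl9, chr11:83578587-83578886, minus strand: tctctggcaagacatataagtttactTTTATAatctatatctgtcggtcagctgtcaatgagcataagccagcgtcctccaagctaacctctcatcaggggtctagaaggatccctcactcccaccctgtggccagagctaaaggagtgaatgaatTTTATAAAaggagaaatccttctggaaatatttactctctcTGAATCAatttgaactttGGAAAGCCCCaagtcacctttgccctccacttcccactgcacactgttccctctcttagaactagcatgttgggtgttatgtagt
Ccl6, chr11:83593038-83593337, minus strand: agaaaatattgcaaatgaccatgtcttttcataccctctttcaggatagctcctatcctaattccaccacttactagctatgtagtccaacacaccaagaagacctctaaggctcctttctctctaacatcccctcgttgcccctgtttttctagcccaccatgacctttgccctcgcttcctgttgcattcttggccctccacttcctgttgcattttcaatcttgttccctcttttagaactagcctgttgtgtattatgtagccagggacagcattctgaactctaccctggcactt

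The Cxcl10 window held 1 interferon-response core, whose first base lies 213 bases before the start, and 1 AP-1 match at 74 bases. It also held 4 kB matches, 3 of which overlap around 103 bases before the start. The stretch that begins at 103 bases matched on both strands and was counted on each. Cxcl2 had 3 kB matches, of which a pair overlap, and none of the other motifs. The Ccl9 window had 1 AP-1 match, 1 kB match and 3 TATA matches, of which those at 94 and 92 bases overlap. Ccl12 had 1 TATA match 31 bases before its start. The windows of Ccl6 and Ccl3 held none of these letters. Among 32851 promoter windows of the same length, 3.44% held the interferon-response core, 7.81% the AP-1 motif, 50.8% the kB motif and 13.6% the TATA motif. The kB motif as searched is thus present in about every other window, and a match describes letters only.

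As a share of all counts, the 10 ligands made up 0.174% and 0.178% of the BMS-582949 libraries and 0.102% and 0.0989% of the DMSO libraries. Exact 95% intervals were 0.173% to 0.175% and 0.177% to 0.180% with BMS-582949, and 0.101% to 0.103% and 0.0979% to 0.0999% with DMSO, and they cover counting error only. These shares rest on library totals without TMM scaling, so they overstate the rise relative to the scaled values. After TMM scaling the 10 ligands summed to 1510 and 1579 CPM with BMS-582949 and 1157 and 1134 CPM with DMSO. Ccl9 supplied 81.7% and 79.5% of the ligand counts with BMS-582949 and 89.1% and 89.0% with DMSO. Cxcl16 supplied 13.9% and 15.3% with BMS-582949 against 7.44% and 7.46% with DMSO. Ccl2 remained a small part, at 1.64% and 1.99% with BMS-582949 and 0.364% and 0.581% with DMSO. The makeup of ligand mRNA thus held more Cxcl16 and Ccl2 and proportionally less Ccl9 in both treated libraries.

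Levels were compared between genes per kilobase of exon, using GENCODE M21 lengths. In the BMS-582949 libraries the order was Ccl9 at 409 ± 5.05 CPM per kb (SD, n = 2), Cxcl16 at 74.9 ± 7.50, Ccl2 at 24.7 ± 4.20, Ccl6 at 15.0 ± 0.691, Ccl3 at 5.95 ± 1.48, Ccl7 at 4.65 ± 0.0175, Cxcl10 at 3.37 ± 1.31, Ccl4 at 1.77 ± 0.328, Ccl12 at 0.794 ± 0.308 and Cxcl2 at 0.403 ± 0.206. No pair of neighbours in that order overlapped between libraries, though Ccl3 and Ccl7, and Ccl12 and Cxcl2, came close. In the DMSO libraries it was Ccl9 at 335 ± 4.95 CPM per kb, Cxcl16 at 28.2 ± 0.344 and Ccl6 at 13.1 ± 0.416, then Ccl3 at 4.90 ± 1.08, Ccl7 at 4.78 ± 0.851 and Ccl2 at 4.75 ± 1.48, whose ranges overlapped. Ccl4 followed at 1.91 ± 0.835, and Cxcl10 at 0.661 ± 0.298, Ccl12 at 0.329 ± 0.298 and Cxcl2 at 0.295 ± 0.243 overlapped in sequence. Ccl2 stood in the third place with BMS-582949 and level with Ccl3 and Ccl7 with DMSO.

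The libraries of a group differed for several ligands by more than counting error. With BMS-582949, replicate 2 was above replicate 1 for all 10 members after scaling, against 49.9% of tested genes, and for 6 of them by at least 1.2-fold, against 11.7%. Those background shares cover genes of every count level. The interval from counts excluded 1 for only 6 of the 10 members with BMS-582949, and for 6 with DMSO. The share of all tested genes with such an interval was not computed. An excess over counting error was not particular to the ligands. Over genes in general the chi-square per degree of freedom was 13.7 for BMS-582949 and 9.62 for DMSO. The BMS-582949 interval included 1 for Ccl4 and Ccl12, which were among those at 1.2-fold or more. The ratio was 1.76 for Cxcl10 (95% interval from counts 1.50 to 2.07), 1.27 for Ccl2 (1.18 to 1.38) and 1.15 for Cxcl16 (1.12 to 1.19). It was 1.02 for Ccl9 (1.01 to 1.03). With DMSO the members moved both ways, with replicate 2 above replicate 1 for 3 and below it for 7. Of tested genes, 53.7% were higher in DMSO replicate 2 and 46.3% in DMSO replicate 1. At 1.2-fold or more, 3 members were higher in DMSO replicate 2, against 12.0% of tested genes, and 4 in DMSO replicate 1, against 13.6%. The DMSO ratios were 1.56 for Ccl2 (1.25 to 1.96), 0.517 for Cxcl10 (0.326 to 0.805) and 0.263 for Cxcl2 (0.104 to 0.587). The ratios of Ccl9 and Ccl6 lay between 0.956 and 1.07 in both groups. The cytokine gene Tnf also differed between the treated libraries, at 10.7 CPM in replicate 1 and 16.7 CPM in replicate 2.

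**Figure D4:**
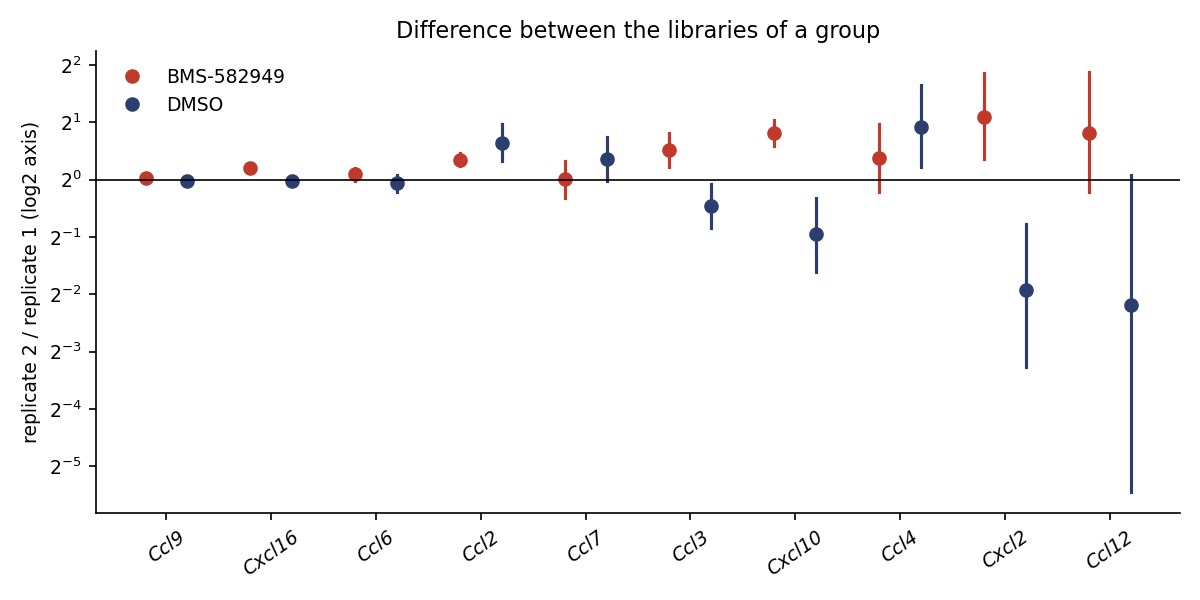
Ratio of TMM-scaled levels, replicate 2 over replicate 1, for each ligand within the BMS-582949 group and within the DMSO group, on a log2 axis, with 95% intervals from counts. All 10 BMS-582949 ratios are above 1, from 1.01 for Ccl7 to 2.14 for Cxcl2, and the DMSO ratios lie on both sides of 1.

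Beyond the 10 members, 28 further chemokine ligand genes were listed, of which 9 had no count in any library and 9 were tested. Of those tested, 3 were called higher and 3 lower (median log2 fold change -0.36), near the 30.5% and 29.7% of all tested genes. Cxcl14, a CXC ligand of epithelia, rose to 26.4 and 27.4 CPM with BMS-582949 against 13.2 and 14.9 CPM with DMSO, and the platelet factor gene Pf4 rose to 47.6 and 53.9 CPM with BMS-582949 against 29.8 and 26.7 CPM with DMSO. Ccl5, named after its values were seen, rested on 24 and 53 counts with BMS-582949 and 10 and 9 with DMSO (1.54, adjusted p = 0.047). Its call ended with the DESeq2 test, limma-voom and the replicate block (adjusted p 0.149, 0.086 and 0.081), and without BMS-582949 replicate 2 (0.78, adjusted p = 0.524), DMSO replicate 1 (adjusted p = 0.122) or DMSO replicate 2 (adjusted p = 0.159) by edgeR. It was not tested with the filter at 1 CPM. Ccl27a, Ccl25 and the stromal ligand Cxcl12 fell by 1.35, 0.92 and 0.53 on the log2 scale. Cxcl12 measured 35.5 and 25.5 CPM with BMS-582949 and 47.9 and 39.9 CPM with DMSO. Of 7 tested stromal markers, 4 were called lower and 1 higher, and a link between these and Cxcl12 was not tested. With library size only, Ccl25 and Cxcl12 were not called (-0.54 and -0.14), nor was Ccl25 without DMSO replicate 1 (-0.71, adjusted p = 0.089).

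Of 10 listed receptors of the members, 6 were tested. Of these, 2 were called lower and 1 higher, against 29.7% and 30.5% of all tested genes. Ccr1, the receptor of Ccl9, Ccl6 and Ccl3, fell to 87.5 and 82.6 CPM with BMS-582949 against 653 and 627 CPM with DMSO, at -2.91 ± 0.07 on the log2 scale (SE, adjusted p = 2.0e-11), and Ccr3 fell by 1.86. Cxcr3, the receptor of Cxcl10, named after its values were seen, had 58 and 57 counts with BMS-582949 and 22 and 17 with DMSO and just passed the threshold (adjusted p = 0.0495). That call ended without each of the 4 libraries in turn, namely without BMS-582949 replicate 1 or 2 (adjusted p 0.145 and 0.182) and without DMSO replicate 1 or 2 (adjusted p 0.079 and 0.205). Ccr2, the receptor of Ccl2, did not pass (0.88, interval 0.09 to 1.66, adjusted p = 0.052).

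Of 15 listed genes of the interferon response, in which Cxcl10 is induced, 13 were tested and all 13 were called higher, against 30.5% of tested genes, with a median log2 fold change of 1.53. Ifit3 and Rsad2 passed the low-count filter through their BMS-582949 libraries alone, and the other 11 had a median of 1.20. Not tested were Ifnb1, with no count in any library, and Mx1, with 8 and 4 counts with BMS-582949 and 0 and 0 with DMSO. Without BMS-582949 replicate 2, 10 of them were called higher, without DMSO replicate 1, 11, and without DMSO replicate 2, 12. Cxcl11, which lies beside Cxcl10, is annotated as a polymorphic pseudogene, and 41.7% of its exon length overlaps other gene annotation. It was not tested, with 7 and 0 counts with BMS-582949 and 4 and 10 with DMSO. Cmpk2, a nucleotide kinase gene, measured 3.14 and 3.76 CPM with BMS-582949 and 0.676 and 0.38 CPM with DMSO. The oligoadenylate synthetase-like gene Oasl2 measured 15.2 and 17.8 CPM with BMS-582949 and 3.44 and 3.74 CPM with DMSO. Ifit2, an interferon-induced gene with tetratricopeptide repeats, rose by 1.93, and the transcription factor gene Irf7 by 1.53, to 17.6 and 22.9 CPM with BMS-582949 against 6.27 and 7.76 CPM with DMSO. That interferon-stimulated genes rise in this contrast was known when the list was made, so the count is no independent evidence.

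Of 9 tested cytokine genes often induced with these chemokines, 3 were called higher and 4 lower (median log2 fold change -0.06). Over all tested genes the shares were 30.5% higher and 29.7% lower. Il18 rose to 5.46 and 4.94 CPM with BMS-582949 against 2.03 and 1.62 CPM with DMSO, Tnf by 1.12 and Csf1, which encodes M-CSF, by 0.46. Lif fell to 5.33 and 4.75 CPM with BMS-582949 against 58.6 and 69.6 CPM with DMSO, and the prostaglandin synthase gene Ptgs2, Osm and the interleukin-1 antagonist gene Il1rn fell by 1.29, 1.00 and 0.60. The Osm call ended without BMS-582949 replicate 2 (-0.76, adjusted p = 0.053) and with library size only (-0.61, adjusted p = 0.092). Il1a, Il1b, Il6, Il12b, Csf2 and Csf3 were not tested, with at most 16 counts in any library.

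Of 12 tested regulators of AU-rich mRNAs, 7 rose and 1 fell (median log2 fold change 0.34), against 30.5% and 29.7% of tested genes. With library size only, 11 were called higher and 0 lower, against 51% of tested genes called higher. Hnrnpd, which encodes the RNA-binding protein AUF1, rose by 1.00, Khsrp by 0.51, Elavl1, which encodes the stabilising protein HuR, by 0.45 and the p38-activated kinase gene Mapkapk3 by 0.43, a call that ended without DMSO replicate 1 (0.28, adjusted p = 0.112). Zfp36, which encodes the mRNA-destabilising protein tristetraprolin, fell to 68.6 and 81.2 CPM with BMS-582949 against 103 and 98.9 CPM with DMSO (-0.43 ± 0.08 SE, adjusted p = 5.5e-04). With library size only its call ended (-0.05). Mapkapk2, which encodes the main p38-activated kinase acting on such mRNAs, had 314 and 309 CPM with BMS-582949 and 325.5 and 353 CPM with DMSO and was not called (-0.12, interval -0.26 to 0.01). These are mRNA levels, and mRNA stability was not measured.

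**Figure D5:**
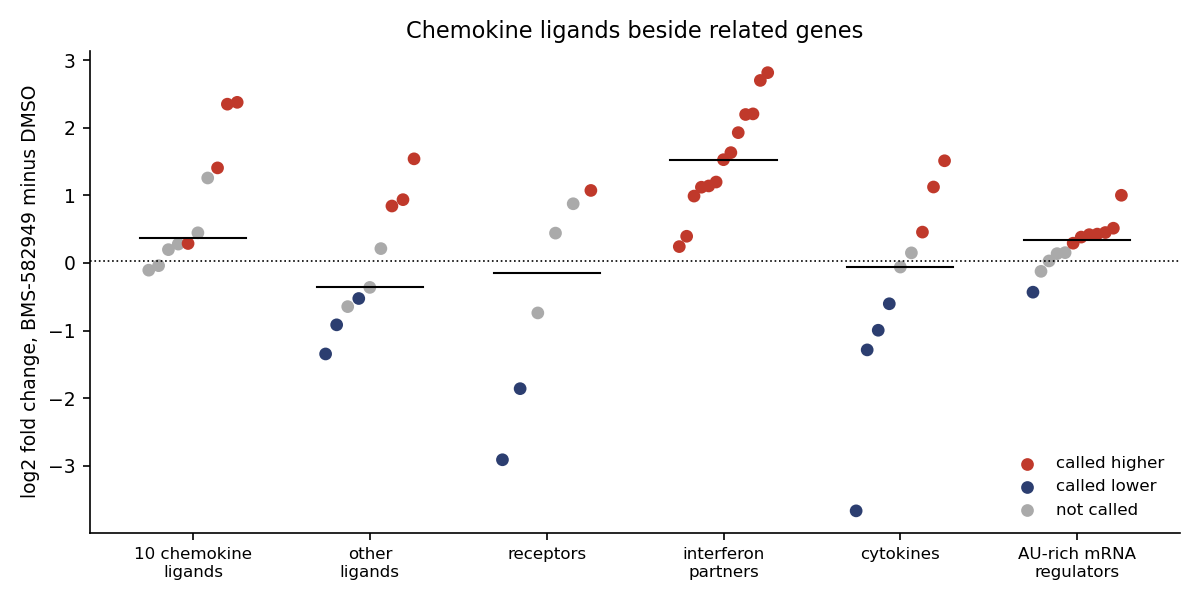
Log2 fold change (BMS-582949 minus DMSO) of every tested gene in 6 lists, with a bar at each list's median and a dotted line at the median of all tested genes. All 13 tested interferon partners lie above 0, the 10 ligands have their median at 0.37, and the receptors run from -2.91 to 1.07.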

How the data were processed

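Values in the deposited table are raw counts for each gene model, whole numbers whose sums differ between libraries. Trimmomatic 0.36, HISAT2 2.0.4, DESeq2 1.30.1 and build GRCm38 are named, per the submitters' processing notes, without roles. Which tool, annotation and strand setting made the counts is not given in the sources used here. Columns were matched to samples by name, and groups were taken from the treatment label, since the treated titles transpose digits of the compound's name and the treatment protocol names the compound for every sample. Symbols, positions and exon lengths came from GENCODE M21.

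The test was edgeR 4.0.16 in R 4.3.3 (filterByExpr with a minimum count of 10, TMM, glmQLFit and glmQLFTest, no covariates, 2 residual degrees of freedom). Benjamini-Hochberg adjustment ran over all 13214 genes tested, with a threshold of 0.05, and intervals used the test's own degrees of freedom. Log2 fold changes take BMS-582949 over DMSO. Replicate libraries differed by more than sampling noise, with a chi-square of 13.7 per degree of freedom for BMS-582949 and 9.62 for DMSO. They were therefore not merged as 1 library deposited again, which does not show that they come from separate cultures. The script was tested on simulated data. Alternatives were other scalings and filters, DESeq2 1.42.0, limma-voom 3.58.1, a replicate block, stricter calls, summed paralogs and leaving out each library.

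The members and lists were chosen with earlier results of these data known. All members are described. From each other list, up to 4 called genes per direction with a mean of at least 1 CPM are named, and Mapk14 and Mapkapk2 whatever their result. No comparison of the proteins was made.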

Additional observations from a re-analysis of the deposited data

How the results depend on the processing

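Ccl2, Cxcl10, Cxcl16 and Ccl9 were called higher under all 12 alternative fits, and the count of members called higher stayed at 4 except with library size only, where Ccl3 and Ccl6 made it 6, and where a log2 fold change of at least 1 was asked for, which left 3. No member was called lower under any of these. Leaving out 1 library gave log2 fold changes of 2.09 to 2.74 for Ccl2, 1.86 to 2.90 for Cxcl10, 1.28 to 1.50 for Cxcl16 and 0.25 to 0.30 for Ccl9, with adjusted p up to 0.019 for Ccl9. Among members that were not called, the sign changed for Ccl3 without BMS-582949 replicate 2 (-0.021, range without single libraries -0.021 to 0.53), for Cxcl2 without BMS-582949 replicate 2 (-0.22) and without DMSO replicate 2 (-0.21, range -0.22 to 1.70), and for Ccl4 with library size only (0.27), without BMS-582949 replicate 1 (0.07), without DMSO replicate 2 (0.43, range -0.49 to 0.43) and summed with Ccl3 (0.19). It changed for Ccl7 with upper-quartile scaling (0.021), with library size only (0.34), without DMSO replicate 2 (0.16, range -0.21 to 0.16) and when summed with Ccl2 and Ccl12 (1.78), a sum that Ccl2 dominates. Receptors called higher numbered 0 with DESeq2 size factors, the DESeq2 test, limma-voom and the replicate block, 2 with upper-quartile scaling, no filter or a filter at 1 CPM, 3 with library size only, and 0 to 1 without single libraries. Library size only gave 1 other ligand called lower, against 3, and 11 higher and 0 lower AU-rich mRNA regulators, against 7 and 1, and the DESeq2 test gave 2 of these lower. The cause was not tested beyond the shift in the median of all genes under library size only. The replicate numbers are not shown to pair the libraries (correlation of same-numbered deviations -0.078), and with a replicate block 4 members were called higher, with Ccl9 at 0.29 (adjusted p = 7.6e-03). Ccl12 and Cxcl2, with 2 to 48 counts per library, were not tested with the filter at 1 CPM.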
